A study of Mus musculus with 18 samples.

Results

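The 10 genes described here encode parts of the MHC class I antigen presentation pathway or an activator of its genes. They were chosen by name, with earlier results of these data known. H2-K1 and H2-D1 encode the classical class I heavy chains of these mice, and B2m encodes beta-2 microglobulin, the light chain. Nlrc5 encodes a transcriptional activator of class I genes. Tap1 and Tap2 encode the peptide transporter of the endoplasmic reticulum, and Tapbp encodes tapasin, which holds empty class I molecules at that transporter. Psmb8, Psmb9 and Psmb10 encode the catalytic subunits of the immunoproteasome. All 10 have an entry in the deposited table, which lists 57234 genes and transcribed regions in 18 libraries. All 10 were also among the 14765 entries that carry a reference gene and reached 0.5 FPKM in a minimum of 3 libraries, which were tested. FPKM is the number of sequenced fragments of a gene, divided by its length and by the mapped fragments of the library.

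MHC class I molecules carry short peptides to the cell surface, where CD8+ T cells inspect them. The peptides are cut by proteasomes, moved into the endoplasmic reticulum by the transporter and loaded onto heavy chains that have joined beta-2 microglobulin. Interferon-gamma, a product of T cells and NK cells, is known to induce genes of all these steps, and loss of class I expression is a known route by which tumors escape T cells.

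RNA was sequenced from the forestomach of male C57BL/6 mice in 4 groups, and the tissue of all groups was collected when week 25 ended. The 3 wild-type (WT) control samples and the 3 CCR2-/- control samples came from mice given 1% carboxymethyl cellulose by gavage. The 6 WT and 6 CCR2-/- samples of the other groups came from mice given the nitrosamine NMBA at 0.25 mg/kg, 2 times a week for 5 weeks. The CCR2-/- mice carried the Ccr2tm1Ifc allele in all tissues and so lacked the receptor by which monocytes follow CCL2, and mice were used from 4 to 8 weeks of age. The sequenced NMBA tissue is described as tumor, and the share of tumor in a sample is not known here. Code letters in the library names (A for WT controls, M and then G for WT replicates 1 to 3 and 4 to 6 under NMBA, C for CCR2-/- controls, O and then I likewise for CCR2-/- under NMBA) each belong to 1 group, so the letter and the group cannot be told apart across groups.

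Ccr2 lay between 1.30 and 3.43 FPKM in the 9 WT libraries and between 0 and 0.0798 FPKM in the 9 CCR2-/- libraries, so the genotype labels matched the data. The 4 measured markers of squamous forestomach summed to 7191 to 11877 FPKM, and Krt14 had no entry. In WT the sums did not overlap, at 11208 to 11877 FPKM in controls and 8324 to 10412 under NMBA. Of the 4 markers, 2 had positive log2 differences for NMBA in WT, and the median of the 4 was 0.03. Markers of glandular stomach, 8 of 10 in the table, ranged from 4390 to 63178 FPKM, and Pgc, which encodes a pepsinogen of glandular stomach, took 9.23% of the FPKM of WT control replicate 3, 9.51% of that of CCR2-/- NMBA replicate 4 and 0.412 to 4.52% in the other 16 libraries. The table holds no counts, so the depth of each library is unknown. Nothing in the labels names the animal of a library, and the p-values below set differences against the spread between these samples.

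Parts of the promoters of H2-K1, H2-D1 and B2m are printed because these genes had the highest levels and were the most alike across libraries. Promoter windows, from 250 bases before to 50 bases after a start site, were given by RefSeq (GRCm38.p6) for 8 of the 10 genes; Tap2 and Nlrc5 had none. Both strands were searched for the letters of an interferon-stimulated response element core, GAAANNGAA or GAANNGAAA, of a gamma-activated site, TTCNNNGAA, of a kappa-B site, GGGGANTCC or GGGANTTTC, of the X2 box, TGACGC, and of the CCAAT box, CCAAT. Capitals mark the matches. GGGGATTCCCC matches GGGGANTCC on both strands, with the matches overlapping, and TTTCACTTC, GAAAGTCCC and ATTGG match GAANNGAAA, GGGANTTTC and CCAAT on the other strand.
H2-K1 kappa-B and response element: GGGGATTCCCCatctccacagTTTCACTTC
H2-D1 kappa-B and response element: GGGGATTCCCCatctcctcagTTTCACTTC
B2m response element and kappa-B: agaacatGAAACTGAAaatggGAAAGTCCC
H2-K1 X2 box and CCAAT box: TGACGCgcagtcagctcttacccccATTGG
H2-D1 X2 box and CCAAT box: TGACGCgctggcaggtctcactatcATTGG
B2m CCAAT box: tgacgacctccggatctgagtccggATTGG

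The H2-K1 stretches lie on the minus strand at chr17:34000429-34000458 and chr17:34000359-34000388 and overlap no gene of GENCODE M21. Those of H2-D1 lie on the plus strand at chr17:35262923-35262952 and chr17:35262993-35263022, before the RefSeq start but inside the untranslated part of an H2-D1 exon in GENCODE M21. The B2m stretches lie on the plus strand at chr2:122147541-122147570 and chr2:122147609-122147638, inside Patl2 but in none of its exons. The stretch with the kappa-B and response element letters was the same in H2-K1 and H2-D1 at 29 of 30 bases, the stretch with the X2 and CCAAT letters at 23 of 30, and the span from the kappa-B letters to the CCAAT letters at 89 of 100.

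**Figure D1:**
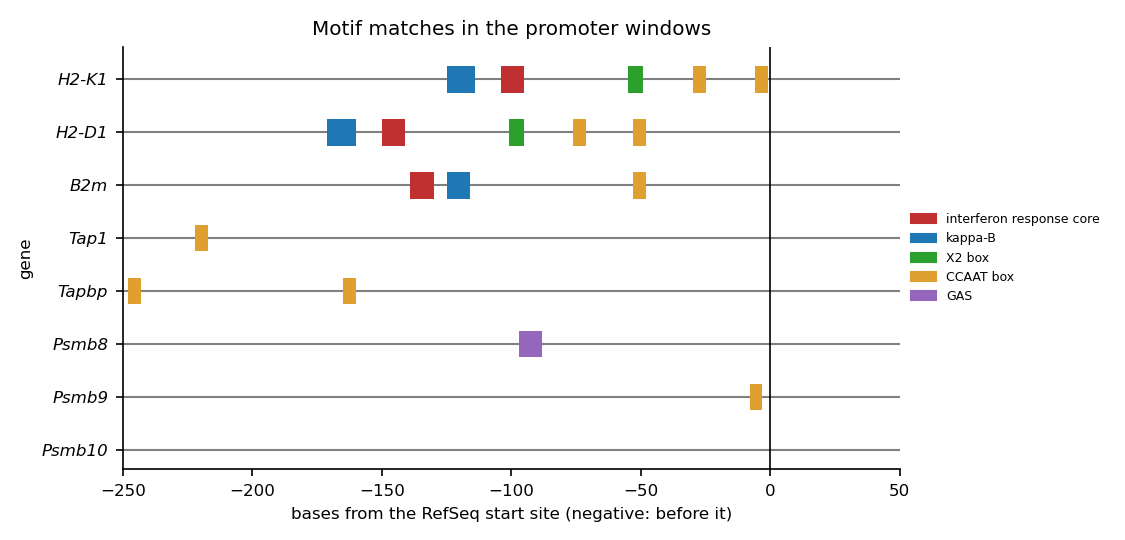
Matches of motif letters in the promoter windows of 8 genes, drawn by distance in bases from the RefSeq start site (x axis; negative before the start). Coloured bars are matches on either strand, the vertical line is the start site, and for H2-K1 the window of 1 of its 2 start sites is shown; kappa-B and interferon response letters appear in the same order in H2-K1 and H2-D1 and in the opposite order in B2m.

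Of 32817 promoter windows of mouse genes, 8.55% held GAAANNGAA, 7.52% GAANNGAAA, 8.29% TTCNNNGAA, 1.19% GGGGANTCC, 1.11% GGGANTTTC, 7.39% TGACGC and 37.4% CCAAT. Letters of either response element core, either kappa-B form and the X2 box stood together in 8 windows (0.0244%), of which 2 belong to H2-K1 and 1 to H2-D1. This combination and the form GAANNGAAA were chosen after those windows had been read. The window of Psmb8 held TTCNNNGAA, those of Tapbp, Tap1 and Psmb9 held CCAAT alone, and that of Psmb10 held none of these letters. Tap1 and Psmb9 are read in opposite directions from neighbouring start sites and share their CCAAT letters at chr17:34187334-34187338.

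The light chain and the heavy chains stood far above the other genes. Over the 18 libraries B2m averaged 561 ± 140 FPKM (SD, n = 18), H2-D1 229 ± 41.8 and H2-K1 141 ± 37.7, in this order in 18 of 18 libraries. Tapbp followed at 15.1 ± 3.78 FPKM, Psmb10 at 12.2 ± 2.62, Tap2 at 10.9 ± 2.06, Psmb8 at 5.28 ± 1.56, Tap1 at 4.77 ± 1.45, Nlrc5 at 4.38 ± 1.57 and Psmb9 at 3.85 ± 1.21. Neighbours in this order overlapped in range except H2-K1 and Tapbp, whose lowest and highest libraries were 64.0 and 23.3 FPKM. Nlrc5 varied most between libraries, 4.34-fold from the lowest to the highest, and Psmb10 least, 2.09-fold.

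Some entries do not stand for 1 gene alone. H2-K1 and H2-D1 are close copies of each other and of the H2-Q genes, and reads that match several of them may have been shared out in ways not given in the sources used here. The Tapbp entry joins Tapbp with its neighbour Zbtb22 at chr17:33915899-33929288, so its level belongs to both. The entries of Psmb9 (chr17:34181988-34187764, minus strand) and Tap1 (chr17:34187553-34197225, plus strand) overlap by 212 bases, and nothing states that strand was used in counting. Psmb8 (chr17:34197721-34201454) and Tap2 (chr17:34203527-34216321) follow in the same stretch of the class II region on chromosome 17. H2-K1 (chr17:33996017-34000333) and H2-D1 (chr17:35262730-35267499) lie on either side of it, and B2m (chr2:122147686-122153083), Psmb10 (chr8:105935728-105938392) and Nlrc5 (chr8:94472763-94527272) lie elsewhere (GRCm38).

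**Figure D2:**
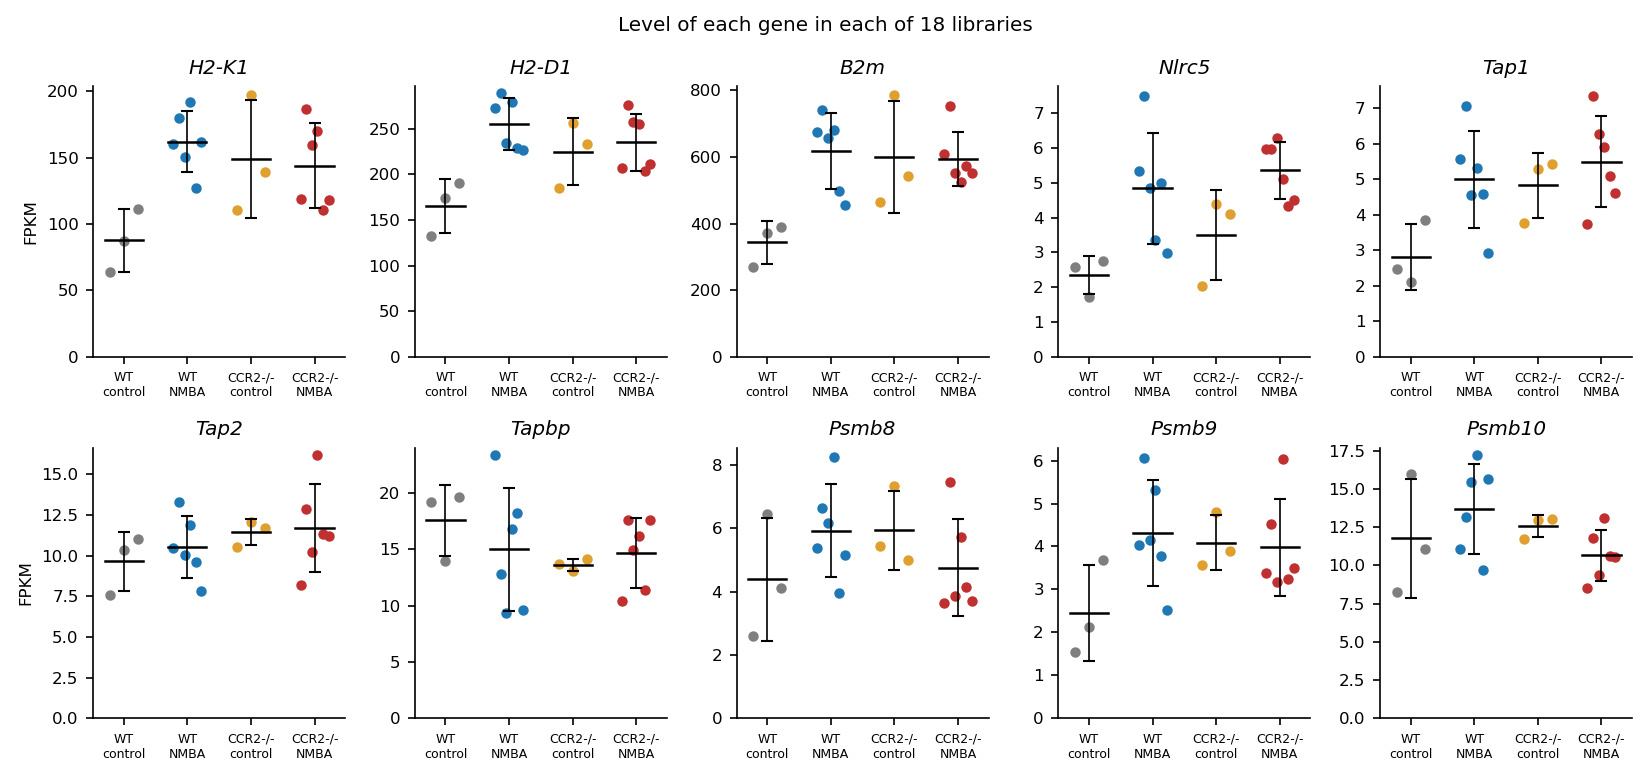
Level in FPKM (y axis, from 0) of each of the 10 genes in the 18 libraries, by group (x axis), with the mean (bar) and SD (error bar). Points are libraries in replicate order; for H2-K1, H2-D1, B2m and Nlrc5 the 3 WT controls lie below all 6 WT libraries under NMBA, and the CCR2-/- groups overlap each other for every gene.

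The comparison of WT mice under NMBA with WT controls asks how the pathway stood in carcinogen-treated tissue. The 3 WT controls had the lowest levels of H2-K1, H2-D1, B2m and Nlrc5, and the means under NMBA were 1.54- to 2.06-fold those of the controls. None of the 10 genes passed the adjusted threshold of 0.05. In this comparison 13 of 14765 genes passed it, all of them higher under NMBA, which is 0.088% of those tested.

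H2-K1, a heavy chain, was at 64.0, 87.5 and 111 FPKM in the 3 WT controls, and the 6 WT libraries under NMBA ran from 127 over a median of 161 to 192 FPKM. The 2 groups did not overlap. Its log2 difference was 0.90 (SE 0.21, limma adjusted p = 0.136), with means 1.85-fold apart. H2-D1, the other heavy chain, had 133, 175 and 190 FPKM in the controls and 226, 254 and 289 as the lowest, median and highest under NMBA. These groups did not overlap either, and the log2 difference was 0.63 (SE 0.15, limma adjusted p = 0.136). B2m was at 269, 370 and 391 FPKM in the controls and at 456, 666 and 741 as the lowest, median and highest under NMBA. Every NMBA library thus exceeded every control, with means 1.80-fold apart and a log2 difference of 0.84 (SE 0.19, limma adjusted p = 0.129).

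Nlrc5, the activator of class I genes, was at 2.58, 1.73 and 2.75 FPKM in the WT controls. Under NMBA it ran from 2.99 over a median of 4.92 to 7.49 FPKM, without overlap, and its means were 2.06-fold apart (log2 difference 0.77, SE 0.22, limma adjusted p = 0.204). The 3 libraries with the letter M (4.86 to 7.49 FPKM) lay mostly above those with the letter G (2.99 to 4.99 FPKM).

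The transporter genes differed from each other. Tap1 had 2.49, 2.09 and 3.86 FPKM in the WT controls and 2.93, 4.94 and 7.06 as the lowest, median and highest under NMBA. The groups overlapped through control replicate 3 and NMBA replicate 6, and the log2 difference was 0.65 (SE 0.21, limma adjusted p = 0.228). Tap2 had 7.56, 10.4 and 11.02 FPKM against 7.86, 10.3 and 13.3, with a log2 difference of 0.11 and an interval from -0.25 to 0.48 (95%). Its 2 groups covered nearly the same range. The joined Tapbp entry had 19.2, 13.9 and 19.6 FPKM against 9.33, 14.8 and 23.3, and was the only one of the 10 with a negative log2 difference, -0.27 (95% interval -0.77 to 0.23).

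Of the immunoproteasome subunits, Psmb9 stood farthest apart. It was at 1.53, 2.13 and 3.69 FPKM in the WT controls and at 2.53, 4.08 and 6.07 as the lowest, median and highest under NMBA (log2 difference 0.64, SE 0.22, limma adjusted p = 0.249). Control replicate 3 lay within the NMBA range, and the other controls lay below it. Psmb8 had 2.59, 6.45 and 4.10 FPKM against 3.95, 5.77 and 8.25, with a log2 difference of 0.40 (95% interval -0.10 to 0.90). Psmb10 had 8.25, 16.0 and 11.1 FPKM against 9.68, 14.3 and 17.2, with a log2 difference of 0.22 (95% interval -0.17 to 0.61). For both, control replicate 2 was within the upper part of the NMBA range. Without WT control replicate 1 the log2 differences were 0.14 for Psmb8 and 0.01 for Psmb10, and without WT control replicate 2 they were 0.67 and 0.45.

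At an unadjusted p under 0.05, 6 of the 10 genes were higher under NMBA (H2-K1, H2-D1, B2m, Tap1, Psmb9 and Nlrc5), where 5.45% of all genes tested were. Groups without overlap, higher under NMBA, occurred for 4 of the 10 and for 2.7% of all genes. The median log2 difference of the 10 genes was 0.63, and that of all genes was -0.01. Without WT control replicate 1, which had the lowest values of its group in H2-K1, H2-D1, B2m, Tap2, Psmb8, Psmb9 and Psmb10, the median was 0.46 and 5 genes had an unadjusted p under 0.05. With only the NMBA replicates 4 to 6 (letters G and I) it was 0.49 with 3 genes, and with only replicates 1 to 3 (letters M and O) it was 0.73 with 6 genes. In this last fit B2m passed the adjusted threshold (log2 difference 1.02, limma adjusted p = 0.0491), as did 158 of the 14765 genes, B2m included. The share of all genes at an unadjusted p under 0.05 was not computed for these reduced sets of libraries.

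**Figure D3:**
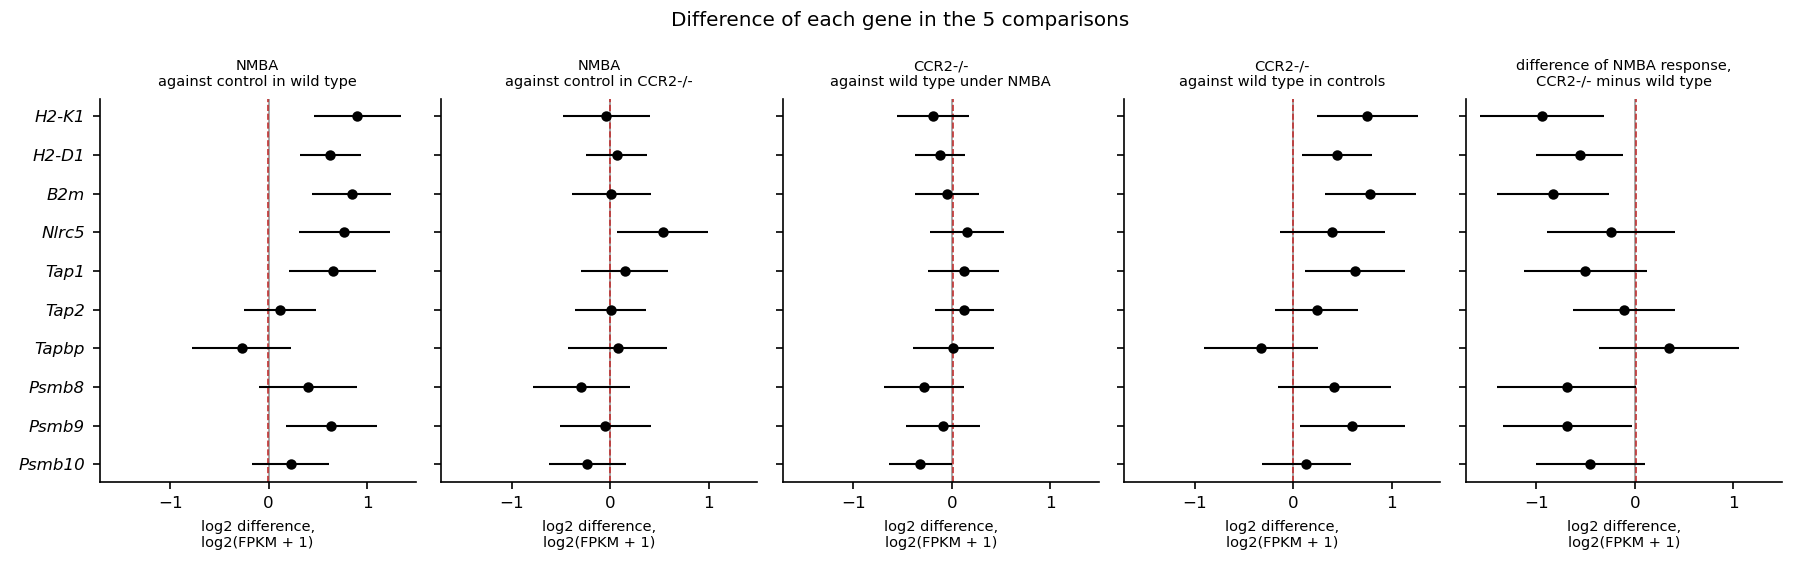
Log2 difference of each gene (point) with its 95% interval (line) on log2(FPKM + 1), in the 4 comparisons and in the difference between the NMBA responses. The grey line is 0 and the dashed line the median of all 14765 genes; H2-K1, H2-D1 and B2m lie near 0.6 to 0.9 in WT, near 0 in CCR2-/-, and the adjusted threshold was passed by none of the 10.

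The same WT controls enter the comparison of CCR2-/- with WT controls, which asks where the pathway stood without carcinogen, and the difference between the NMBA responses. In the CCR2-/- controls the class I chains were within or near the range of the NMBA groups. B2m was at 465, 787 and 544 FPKM, all above the 269 to 391 FPKM of the WT controls, with means 1.74-fold apart (log2 difference 0.78, SE 0.22, limma adjusted p = 0.707). H2-K1 was at 110, 197 and 139 FPKM and overlapped the WT controls, since the lowest was under the 111 FPKM of WT control replicate 3. Its log2 difference was 0.75 (SE 0.24, limma adjusted p = 0.801).

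None of the 10 genes passed the adjusted threshold between the control groups, and 1 of all genes did (0.00677%), which was Ccr2. H2-D1 was at 185, 257 and 234 FPKM (log2 difference 0.44, SE 0.17, limma adjusted p = 0.931) and Tap1 at 3.77, 5.27 and 5.43 FPKM (0.63, SE 0.24, limma adjusted p = 0.931). Both overlapped the WT controls by 1 library. Psmb9 was at 3.56, 4.80 and 3.90 FPKM (0.60, SE 0.25, limma adjusted p = 0.931), Psmb8 at 5.45, 7.34 and 5.00 and Psmb10 at 11.7, 13.0 and 13.0 FPKM. Nlrc5 was at 2.03, 4.39 and 4.10 FPKM and Tap2 at 10.5, 12.1 and 11.7 FPKM. CCR2-/- control replicate 1 was the lowest of its group in all of the 10 genes except Psmb8 and the Tapbp entry. The Tapbp entry was at 13.7, 13.1 and 14.1 FPKM and again the only one with a negative log2 difference, -0.33 (95% interval -0.91 to 0.25).

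At an unadjusted p under 0.05, 5 of the 10 genes were higher in CCR2-/- controls (H2-K1, H2-D1, B2m, Tap1 and Psmb9; 2.81% of all genes), and B2m alone had groups without overlap (4.47% of all genes). The median log2 difference was 0.43, against 0.00 for all genes. These counts rest on single libraries. Without CCR2-/- control replicate 2 there was 1 such gene (median 0.31), without CCR2-/- control replicate 3 there were 3 (median 0.46), and without WT control replicate 1 there were 2 (median 0.35).

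The comparison of CCR2-/- mice under NMBA with their controls asks how the pathway stood in carcinogen-treated tissue without CCR2. The heavy and light chains lay where the CCR2-/- controls lay. H2-K1 ran from 111 over a median of 139 to 187 FPKM (log2 difference -0.04, 95% interval -0.48 to 0.41), H2-D1 from 204 over 233 to 276 FPKM (0.07, 95% interval -0.24 to 0.38) and B2m from 524 over 562 to 752 FPKM (0.01, 95% interval -0.39 to 0.41). All 3 overlapped the CCR2-/- controls. In WT the 95% intervals ran from 0.46 to 1.35 for H2-K1, from 0.32 to 0.94 for H2-D1 and from 0.44 to 1.24 for B2m. The intervals of H2-D1 in the 2 genotypes overlapped. The direct comparison, the difference between the NMBA responses given below, passed the adjusted threshold for none of the 3.

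Nlrc5 ran under NMBA from 4.34 over a median of 5.53 to 6.28 FPKM in CCR2-/- mice, against 2.03, 4.39 and 4.10 FPKM in their controls, so that only control replicate 2 reached into the NMBA range. Its log2 difference was 0.53 (SE 0.22, limma adjusted p = 0.390), with means 1.53-fold apart. Without CCR2-/- control replicate 1 the log2 difference was 0.27. The 3 libraries with the letter O (5.96 to 6.28 FPKM) lay above the 3 with the letter I (4.34 to 5.10 FPKM) without overlap. The 2 letters belong to the same group, and what they stand for is not given in the labels.

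None of the 10 genes passed the adjusted threshold in this comparison, where 3 of all genes did (0.0203%), and Nlrc5 alone was higher at an unadjusted p under 0.05 (5.2% of all genes), a share of the 10 genes near that of all genes. The count was 0 without CCR2-/- control replicate 1 and with the NMBA replicates 4 to 6 only. Tap1 ran from 3.73 over 5.50 to 7.35 FPKM (log2 difference 0.15) and Tap2 from 8.22 over 11.3 to 16.2 FPKM (0.00). The Tapbp entry ran from 10.4 over 15.6 to 17.6 FPKM (0.07), Psmb8 from 3.63 over 3.997 to 7.46 FPKM (-0.29), Psmb9 from 3.16 over 3.44 to 6.03 FPKM (-0.05) and Psmb10 from 8.51 over 10.6 to 13.1 FPKM (-0.23). All 6 overlapped their controls, and the median of the 10 log2 differences was 0.01.

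The comparison between the genotypes under NMBA asks whether loss of CCR2 went with other levels in carcinogen-treated tissue. All 10 overlapped, their log2 differences lay between -0.32 and 0.16 with a median of -0.07, and 4 of them were positive. None passed the adjusted threshold, which 7 of all genes did (0.0474%). Psmb10 alone was lower in CCR2-/- mice at an unadjusted p under 0.05 (3.9% of all genes), at 10.7 ± 1.65 FPKM (SD, n = 6) against 13.7 ± 2.93 (SD, n = 6), with a log2 difference of -0.32 (SE 0.15, limma adjusted p = 0.730). This count was 0 when any of 12 libraries was left out (WT control replicate 3, WT NMBA replicates 2, 3, 4 and 6, all 3 CCR2-/- controls, and CCR2-/- NMBA replicates 1, 3, 5 and 6), and 2 without CCR2-/- NMBA replicate 2. The interval of H2-K1 ran from -0.55 to 0.18, that of H2-D1 from -0.37 to 0.13 and that of B2m from -0.37 to 0.28, so larger differences of these chains in either direction lie outside the 95% limits.

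The difference between the NMBA responses, CCR2-/- minus WT, was negative for 9 of the 10 genes, with a median of -0.53 against 0.02 for all genes. No gene of the table passed the adjusted threshold in limma (0 of 14765, 0%), while 673 had an unadjusted p under 0.05. Of the 10 genes, 4 were lower at an unadjusted p under 0.05 (2.58% of all genes): H2-K1 (-0.94, SE 0.30), B2m (-0.83, SE 0.27), Psmb9 (-0.69, SE 0.31) and H2-D1 (-0.56, SE 0.21), each with a limma adjusted p of 0.893. Psmb8 was at -0.69 (SE 0.33) and Nlrc5 at -0.24 (SE 0.31), and the Tapbp entry was the positive one at 0.35 (SE 0.34). With 1 library left out, the number of the 10 genes at that p was 4 in 4 fits, 2 in 2, 3 in 6, 5 in 5 and 6 in 1. It was 2 without WT control replicate 1 and 2 without CCR2-/- control replicate 2. For B2m, the control means were 343 ± 65.2 FPKM in WT and 599 ± 168 in CCR2-/- (SD, n = 3 each), and the NMBA means were 618 ± 114 and 593 ± 82.3 FPKM (SD, n = 6 each).

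The immunoproteasome subunits replace constitutive ones in the same core, Psmb8 in place of Psmb5, Psmb9 of Psmb6 and Psmb10 of Psmb7, so they were compared as ratios within a library. The tests used log2 ratios with 1 FPKM added to each subunit, which depend in part on the scaling of the library. On the FPKM scale the mean ratio of Psmb8 to Psmb5 was 0.0256 to 0.0427 over the 4 groups, that of Psmb9 to Psmb6 was 0.0382 to 0.0617 and that of Psmb10 to Psmb7 was 0.253 to 0.268. The constitutive subunit therefore had the higher level in each pair. The widest difference on that log2 scale was that of Psmb8 to Psmb5 between the control groups, 0.66, with FPKM ratios of 0.0427 ± 0.00943 in CCR2-/- against 0.0256 ± 0.00747 in WT (SD, n = 3 each) that did not overlap. Its two-sided exact permutation p was 0.1, the smallest that 3 against 3 libraries allow, with an adjusted p of 0.857 over 12 exact tests. None of the 12 tests passed. Those between the control groups could not have passed, whatever the ratios were. With 6 against 3 libraries the smallest possible p was 0.0119 before adjustment.

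**Figure D4:**
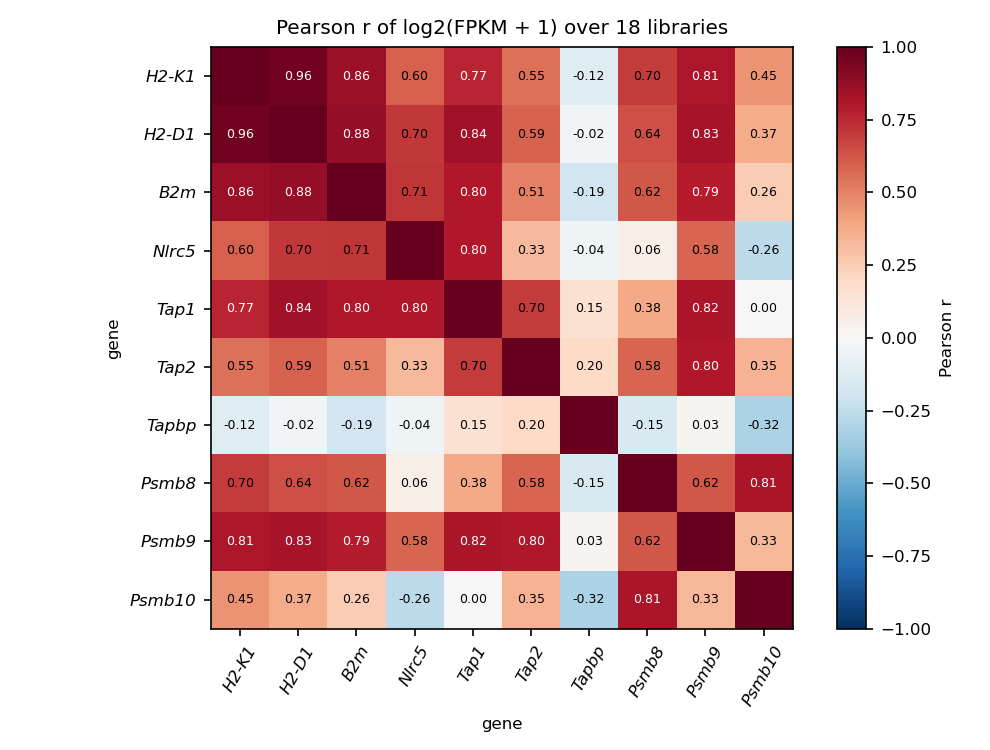
Pearson r between each pair of the 10 genes over 18 libraries, on log2(FPKM + 1), coloured from -1 (blue) to 1 (red). H2-K1 and H2-D1 have the highest r (0.96), and the Tapbp row stays between -0.32 and 0.20.

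Across the 18 libraries the pairs of genes moved together to different degrees. These libraries share groups, scaling and tissue makeup, so the correlations are given as a description. H2-K1 and H2-D1 had a Pearson r of 0.96, which was 0.93 with group means removed, and H2-D1 and B2m had 0.88 (0.75 with group means removed). Tap1 and Psmb9, with overlapping entries, had 0.82 (0.74). H2-D1 had 0.84 (0.77) with Tap1 and 0.83 (0.73) with Psmb9. Tap2 and Psmb9, whose entries do not overlap, had 0.80 (0.88), and Psmb8 and Psmb10 had 0.81 (0.80). Nlrc5 was closest to Tap1 (0.80, and 0.68 with group means removed), followed by B2m (0.71, 0.51), H2-D1 (0.70, 0.48) and H2-K1 (0.60, 0.33). With Psmb8 it stood at 0.06 (-0.06) and with Psmb10 at -0.26 (-0.39). The joined Tapbp entry had a median r of -0.04 with the other genes, which was 0.20 with group means removed, highest with Tap1 (0.51).

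Outside the pathway lists, the 5 genes whose levels followed the mean z value of the 10 genes most closely over 18 libraries were Mcm10 (r = 0.84), Mcm3 (0.83), the joined entry of Ifi47 and Olfr56 (0.81), Tbc1d10c (0.81) and Rac2 (0.81). Mcm10 and Mcm3 encode DNA replication factors, Ifi47 an interferon-gamma inducible GTPase and Rac2 a GTPase of blood cells. Mcm10 was low, with group means of 0.278 to 0.576 FPKM, near the filter of 0.5 FPKM, while those of Mcm3 were 3.27 to 4.65 FPKM.

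Of 17 other class I heavy chain genes listed, 9 had an entry and 6 were tested, and none passed the adjusted threshold. H2-Q1, a non-classical heavy chain gene, was at 2.15 ± 0.473 FPKM in WT controls (SD, n = 3), 3.49 ± 0.418 in WT under NMBA (SD, n = 6), 3.50 ± 0.444 in CCR2-/- controls (SD, n = 3) and 2.96 ± 0.437 in CCR2-/- under NMBA (SD, n = 6). Its log2 difference was 0.52 for NMBA in WT (limma adjusted p = 0.136) and 0.52 between the control groups (limma adjusted p = 0.623). H2-Q7 stood at 3.49 ± 1.25, 6.90 ± 1.98, 7.05 ± 2.98 and 6.70 ± 2.67 FPKM in the same order of groups. Both had their lowest mean in the WT controls, like the classical chains, and the reads of H2-Q genes may be shared with H2-K1 and H2-D1. Mr1, which encodes a class I-like molecule for microbial metabolites, lay the other way in WT, at 3.06 ± 0.639 FPKM in controls (SD, n = 3) and 2.29 ± 0.401 under NMBA (SD, n = 6), a log2 difference of -0.30 (limma adjusted p = 0.344).

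Of 6 measured genes of trimming and loading in the endoplasmic reticulum, none passed the threshold. Calr, which encodes calreticulin of the loading complex, was at 150 ± 11.97 FPKM in WT controls (SD, n = 3) and 161 ± 6.72 in WT under NMBA (SD, n = 6), Pdia3, its oxidoreductase, at 141 ± 33.3 and 171 ± 27.2, and Hspa5, a general chaperone, at 36.8 ± 10.2 and 61.9 ± 22.1 FPKM. The log2 differences for NMBA in WT were 0.10 for Calr, 0.29 for Pdia3 and 0.70 for Hspa5. Of the 5 genes of the proteasome activator and assembly list none passed either, and Psme2, a subunit of the interferon-induced activator, was at 33.6 ± 10.9 and 43.0 ± 8.71 FPKM in the same groups, and Psme3 at 29.2 ± 5.48 and 34.3 ± 4.13. All 14 constitutive subunits of the proteasome core had positive log2 differences for NMBA in WT (median 0.22, none past the threshold), and all 14 were negative between CCR2-/- and WT under NMBA (median -0.24, none past the threshold). The log2 differences of these 14 between genotypes under NMBA ran from -0.30 to -0.03, where Psmb10 had -0.32.

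Interferon signalling genes gave no called difference. Ifng, named after its values were seen, had mean levels of 0.0256 to 0.119 FPKM and did not pass the filter on low values. Of 19 tested genes of interferon-gamma signalling and transcriptional control, none passed the threshold in any comparison. Rela, a kappa-B binding factor, stood at mean levels of 22.01 to 24.7 FPKM in the 4 groups, and Ifngr1, a chain of the interferon-gamma receptor, at 18.2 to 23.5. Irf1, a transcription factor that binds interferon response elements, was at 6.603 ± 0.826 FPKM in CCR2-/- controls (SD, n = 3) and 4.15 ± 1.34 in CCR2-/- under NMBA (SD, n = 6), and at 4.63 ± 1.46 and 5.84 ± 0.829 FPKM in the WT groups. Its difference between the NMBA responses was -0.91 (SE 0.29, limma adjusted p = 0.893). Of 11 tested interferon-gamma induced genes outside class I, all 11 had positive log2 differences between CCR2-/- and WT controls (median 0.30) and 9 had positive ones for NMBA in WT (median 0.17), with none past the threshold. Cxcl9, a chemokine for T cells, was at 0.433 ± 0.233 FPKM in WT controls (SD, n = 3) and 1.63 ± 0.671 in WT under NMBA (SD, n = 6), a log2 difference of 0.85 (limma adjusted p = 0.155). Gbp2, an interferon-induced GTPase, was at mean levels of 11.4 to 14.1 FPKM in the 4 groups. Of 8 listed receptors of class I on lymphocytes 4 were tested, and none passed the threshold. Klrd1, a chain of NK cell receptors, had mean levels of 0.390 to 0.721 FPKM, and Cd8b1, a chain of the CD8 co-receptor, 0.274 to 0.762 FPKM.

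T-cell markers were lowest in the group where the class I genes were lowest. The 8 markers, none at 0 in every library, summed to 2.29 to 6.05 FPKM in WT controls, 4.71 to 13.2 in WT under NMBA, 6.38 to 10.7 in CCR2-/- controls and 7.57 to 15.6 in CCR2-/- under NMBA. The WT controls were thus the lowest group for the markers and for the mean z value of the 10 genes alike. Of the 8 markers, 6 were higher at an unadjusted p under 0.05 for NMBA in WT (5.45% of all genes) and 1 for NMBA in CCR2-/- (5.2%). Higher in CCR2-/- than in WT were 3 between the control groups (2.81%) and 2 under NMBA (354 of 14765 genes). None of these passed the threshold. Under NMBA, 0 of the 10 class I and loading genes were higher in CCR2-/- at that p. Cd3e, a chain of the T-cell receptor complex, was at 0.388 ± 0.112, 1.51 ± 0.533, 1.38 ± 0.606 and 1.85 ± 0.603 FPKM in the 4 groups in that order. The 5 general leukocyte markers summed to 20.6 to 33.2 FPKM in WT controls 24.5 to 51.3 in WT under NMBA, 25.2 to 29.8 in CCR2-/- controls and 23.8 to 43.3 in CCR2-/- under NMBA. The 6 measured macrophage markers, of 7 listed, summed to 78.4 to 106 FPKM in WT controls, 82.4 to 142 in WT under NMBA, 92.6 to 102 in CCR2-/- controls and 60.4 to 112 in CCR2-/- under NMBA. Neutrophil markers summed to 32.7 to 61.7 FPKM in WT controls, 214 to 2572 in WT under NMBA, 37.1 to 97.1 in CCR2-/- controls and 259 to 1852 in CCR2-/- under NMBA. S100a8 and S100a9 made up most of the sums under NMBA, with WT means of 1.14 and 35.8 FPKM in controls and 279 and 693 under NMBA. These were the 2 of 6 markers called for NMBA in WT (limma adjusted p = 0.00524 and 0.0465), where 0.088% of all genes were. Cxcr2 had means of 3.47 and 5.64 FPKM in WT controls and under NMBA, and Mmp9, the only negative one, 2.09 and 1.82. Muscle markers summed to 4728 to 6567 FPKM in WT controls and 1932 to 4254 in WT under NMBA. Markers of glandular stomach were at 4390, 7445 and 49173 FPKM in WT controls 1 to 3 and at 25578, 41836 and 28832 in CCR2-/- controls 1 to 3. Their 8 log2 differences had a median of 0.78 for NMBA in WT, 1.64 between the control groups and -1.87 between the responses, with none past the threshold. The 5 measured squamous markers, of 8 listed, summed to 12134 to 13275 FPKM in WT controls, 9686 to 11848 in WT under NMBA, 10958 to 12129 in CCR2-/- controls and 8516 to 12762 in CCR2-/- under NMBA, so that the WT groups did not overlap. The single markers did not all follow the sum. For NMBA in WT 3 of the 5 had positive log2 differences (median 0.09, none past the threshold). Krt5 was at 235 ± 6.38 FPKM in WT controls (SD, n = 3) and 491 ± 167 in WT under NMBA (SD, n = 6). The part of these cell types in the levels of the class I genes was not tested, and in bulk tissue a change in the number of cells of a type and a change in RNA per cell cannot be told apart.

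**Figure D5:**
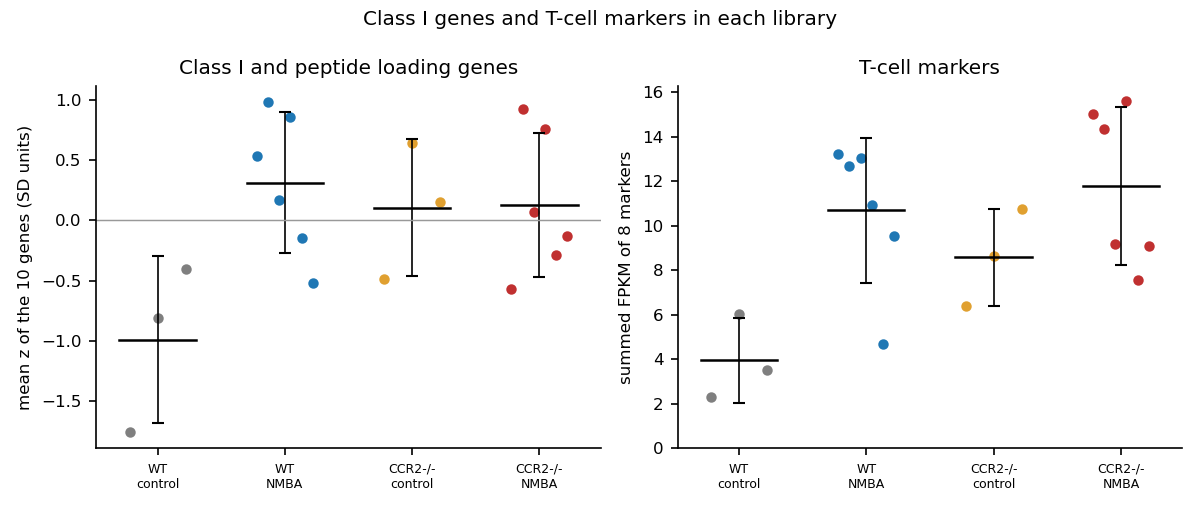
Mean z value of the 10 genes (left, in SD units over 18 libraries) and summed FPKM of 8 T-cell markers (right, from 0) in each library, by group, with mean (bar) and SD (error bar). The WT controls have the lowest group mean in both; the marker sums there are 2.29 to 6.05 FPKM.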

How the data were processed

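Forestomach RNA of 18 samples was sequenced after library construction with the Illumina TruSeq RNA kit. The authors deposited FPKM for every entry, in 1 column per library, and 0 value columns lacked a mapped sample. GRCm38, mm10 and DESeq2 are named in the submitters' processing notes. Aligner, counter and annotation release are not given in the sources used here. FPKM are not counts, so no count test was run, and the depth of the libraries is unknown.

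Of 57234 entries, 28934 carry a reference gene, and the 14765 of these that reached 0.5 FPKM in a minimum of 3 libraries were tested. On log2(FPKM + 1), limma 3.58.1 (R 4.3.3) fitted the 4 groups as 1 factor with a trend of the spread on the level. Tests were two-sided, adjusted by Benjamini and Hochberg over all genes, with a threshold of 0.05. Log2 differences are on this scale and understate those of low genes; intervals are 95% limits of the moderated fit. Ratios of proteasome subunits, with 1 FPKM added on the log2 scale, were compared by two-sided exact permutation tests over libraries (SciPy 1.17.1). The fit was tested on simulated data with known changes.

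The 10 genes and all lists were chosen with earlier results of these data known. All 10 genes were named. Of each pathway list, the genes called were to be named and, in lists without any call, the 2 highest by mean FPKM and the gene with the smallest unadjusted p of a comparison; those of the minor comparisons are not all printed. The 5 genes most alike were taken by Pearson r with the mean z value of the 10. Promoter sequences are from RefSeq (GRCm38.p6). Alternatives changed the added constant, filter, entries, scaling, weights, spread, replicate block and libraries used.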

Additional observations from a re-analysis of the deposited data

Results flagged for a closer look

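Among 26 sets of 6 libraries, the highest or lowest library stood apart from the rest in 1 set, and chance gives about 1 in 20. B2m in CCR2-/- NMBA replicate 2 was at 752 FPKM, where the other 5 libraries of the group were at 524 to 609 FPKM, and its gap took 0.627 of the range of the group. The same library also had the highest H2-K1, H2-D1, Tap1 and Psmb8 of its group. Without it, the log2 difference of B2m for NMBA in CCR2-/- was -0.06.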

How the results depend on the processing

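Of the 10 genes, none passed the threshold in the 5 comparisons except under 2 alternatives, both for NMBA in WT. With the replicate number as a block, 4 passed (H2-K1 0.97, adjusted p = 0.0118; H2-D1 0.69, 0.0206; B2m 0.98, 0.0139; Nlrc5 0.98, 0.0365). In that fit the NMBA libraries 4 to 6 have no control of the same number. The numbers did not pair the samples: deviations of 21 same-numbered pairs had a median r of -0.04, and those of 96 other pairs 0.04. With NMBA replicates 1 to 3 only, 1 passed (B2m). Among all genes, 278 were called with the block, 158 with replicates 1 to 3 and 2 to 31 under the other alternatives for NMBA in WT. For NMBA in CCR2-/- there were 294 with the block, 224 with replicates 1 to 3, 138 with array weights and 0 to 5 otherwise. Under NMBA, 1 to 16 were called between genotypes, and 1 to 4 between controls. Leaving out 1 library gave 1 to 30 for NMBA in WT, 0 to 6 in CCR2-/-, 4 to 13 between genotypes under NMBA, 1 to 6 between controls and 0 to 1 for the difference of responses. The cause was not tested.

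Some small differences turned their direction. For NMBA in CCR2-/-, H2-K1 was 0.012 with quantile normalization, 0.029 with the block and 0.073 with replicates 1 to 3. H2-D1 was -0.024 with array weights and -0.0036 with replicates 4 to 6, B2m -0.047 and -0.090, and Psmb9 0.018 with replicates 4 to 6. Tap2 was -0.043 with array weights, -0.018 with the block, -0.14 with replicates 1 to 3 and -0.089 without the libraries rich in Pgc. Between genotypes under NMBA, Tapbp was -0.0034 with size factors, -0.043 with array weights, -0.0075 with replicates 1 to 3 and -0.014 without the libraries rich in Pgc. B2m was 0.18 with quantile normalization and 0.033 with replicates 4 to 6, Psmb9 0.11 with replicates 4 to 6, and Tap1 -0.012 and Tap2 -0.11 with replicates 1 to 3. For the difference of responses, Tap2 was 0.13 with replicates 4 to 6.

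The log2 ratio of Psmb10 to Psmb7 for NMBA in WT was 0.0011 with 0.1 added, 0.0027 with nothing added, 0.0013 with replicates 1 to 3 and 0.087 without the libraries rich in Pgc. With replicates 4 to 6 it was 0.12 for NMBA in CCR2-/- and 0.055 between genotypes under NMBA, and between controls 0.011 without the libraries rich in Pgc. Between genotypes under NMBA, Psmb8 to Psmb5 was 0.24 with replicates 4 to 6 and Psmb9 to Psmb6 -0.022 with replicates 1 to 3.

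Leaving out 1 library, Tap2 for NMBA in WT ran from -0.036 to 0.21. For NMBA in CCR2-/-, H2-K1 ran from -0.23 to 0.18, H2-D1 from -0.068 to 0.17, B2m from -0.15 to 0.23, Tap2 from -0.089 to 0.091 and Psmb9 from -0.16 to 0.048. Between genotypes under NMBA, B2m ran from -0.13 to 0.011, Tapbp from -0.095 to 0.15 and Psmb9 from -0.20 to 0.0031. Psmb10 between controls ran from -0.078 to 0.36 and Tap2 in the difference of responses from -0.20 to 0.040. Psmb10 to Psmb7 ran from -0.14 to 0.087 for NMBA in WT, -0.22 to 0.022 between controls, -0.19 to 0.0013 between genotypes under NMBA and -0.11 to 0.10 for NMBA in CCR2-/-. Between genotypes under NMBA, Psmb8 to Psmb5 ran from -0.16 to 0.071 and Psmb9 to Psmb6 from -0.021 to 0.30, and for NMBA in CCR2-/- the latter ran from -0.084 to 0.27. The other log2 differences of the 10 genes kept their direction, 673 on the same side of the threshold with another setting, 5 passing it and 877 on the same side with a library left out.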
